A study of Mus musculus with 16 samples.

Results

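*Cd247*, *Cd28*, *Ctla4*, *Pdcd1*, *Cd40lg* and *Cxcr5* are genes of the T cell receptor, of T cell costimulation and of migration into lymphoid follicles, and they were chosen by name as lymphocyte genes that a myeloid panel also measures. They are 6 of the 734 genes with values in these data. Expression was measured in splenic CD11b+ cells of 16 wild-type C57BL/6J (B6) mice with the NanoString nCounter Myeloid Innate Immunity panel. This panel counts mRNA molecules with colour-coded probes and no amplification. The mice formed 4 groups of 4. Naive mice were untreated, and the mice of the other 3 groups received 20000000 spleen cells of allogeneic BALB/c mice, described in the labels as depleted of T cells. Of these groups, the first received no drug, the next CTLA4-Ig (abatacept, 150 μg i.p. on day 2), a fusion protein of the extracellular part of CTLA-4 that occupies the ligands of CD28, and the last CTLA4-Ig plus recombinant erythropoietin (EPO, epoetin alfa, 5000 U/kg i.p. daily). Spleens were taken on day 7, and the CD11b+ cells were obtained by positive selection, with a purity not given in the sources used here. The paper describes the injection of BALB/c cells as i.v. and the labels as i.p., and the paper's results call the profiled cells negative for CD11c. A protocol field of the labels exchanges the letters that stand for naive mice and for BALB/c cells alone, against the sample names and treatment fields, so the direction of every comparison between these groups rests on the names. With the groups as named, 516 of all genes differed between naive mice and BALB/c cells alone (limma adjusted *P* value below 0.05). Between BALB/c cells alone and CTLA4-Ig, 0 did. For a set of depicted genes, the paper reports altered expression after allogeneic cells and no effect of CTLA4-Ig. An exchange of the groups was not tested. No group with EPO and without CTLA4-Ig was analysed here. CTLA4-Ig was injected as protein, and the panel reads the mRNA of the mouse gene *Ctla4*.

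A T cell receives its main signal through the T cell receptor, whose CD247 (zeta) chain carries the phosphorylation motifs that start signalling inside the cell, and its costimulatory signal through CD28, which binds CD80 and CD86 on antigen-presenting cells. CTLA-4 competes with CD28 for the same ligands and PD-1 (*Pdcd1*) binds PD-L1 and PD-L2, and both restrain the response. CD40 ligand on activated helper T cells engages CD40 on B cells and myeloid cells, and CXCR5 guides B cells and follicular helper T cells toward CXCL13 in follicles, while CD247 is also used by NK cells.

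Each deposited value is a whole count, multiplied by a factor common to all genes of the mouse, on the log2 scale, so the counts could be recovered (100% of values whole to within 0.001). Totals lay between 562760 and 912328 counts per mouse. A gene was called low where its recovered count was below 20 in at least 1 mouse, which held for 251 of the 734 genes (34.2%) and for 2 of the 6 described here. *Pdcd1* was the lower, with 1 to 37 counts (mean 14.4) and fewer than 20 in 12 of 16 mice. *Cd40lg* had 7 to 223 counts (mean 95.1) and was below 20 in the 4 naive mice. The lowest counts of the others were 55 for *Ctla4*, 61 for *Cxcr5*, 70 for *Cd28* and 89 for *Cd247*, so none of these 4 was low. In naive mice, counting error alone would give *Pdcd1* an SD of 0.92 on the log2 scale, and the measured SD was 1.04.

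**Figure D1:**
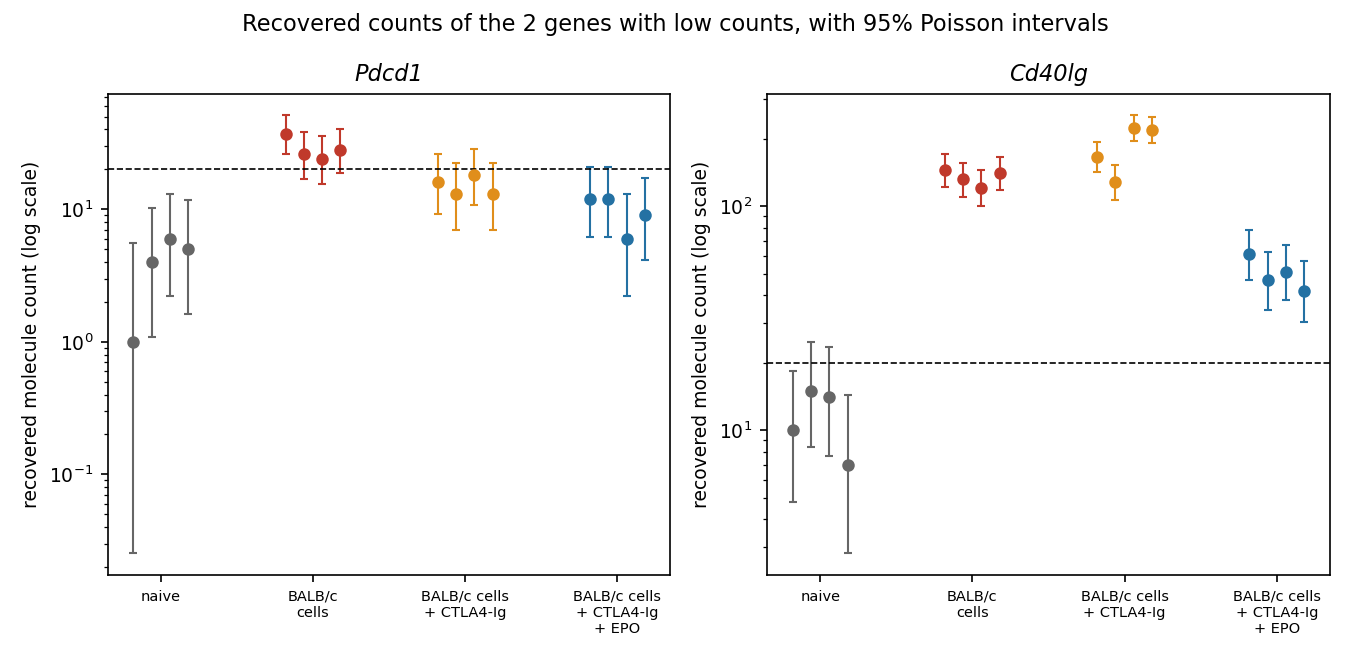
Recovered molecule counts of *Pdcd1* and *Cd40lg* on a log axis, a point per mouse with its 95% Poisson interval (counting error only), and the 20-count line dashed. *Pdcd1* lies between 1 and 6 counts in naive mice and between 24 and 37 after BALB/c cells alone, and *Cd40lg* is under the line only in naive mice, at 7 to 15 counts.

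The scale of the naive mice differs from that of the other groups. The factor applied to their counts was 1.27 to 1.85, against 0.56 to 0.79 in mice given BALB/c cells, and the median change over all 734 genes was -0.65 on the log2 scale for BALB/c cells alone against naive mice and -0.74 for CTLA4-Ig/EPO against naive mice. Changes of the 6 genes and counts of called genes against naive mice are therefore also given after each mouse was centred on its own median over all genes. Naive replicate 1 stood apart from the other naive mice over all genes, with a chi-square per degree of freedom of 71.8 to 127 against them and 8.40 to 19.9 among them. It was the lowest naive mouse for *Cd28*, *Cd247*, *Pdcd1* and *Cxcr5*, and without it 6 of 6 genes were still called higher after BALB/c cells alone. For CTLA4-Ig against BALB/c cells alone and for EPO against CTLA4-Ig, the median changes were -0.00429 and -0.07.

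After BALB/c cells alone, all 6 genes were higher than in naive mice at a limma adjusted *P* value below 0.05, where 11.9% of all genes were called higher and 58.4% lower, and in all 6 the groups did not overlap, which held upward for 10.1% of all genes. Their median log2 change was 1.83. The split of all genes depended on the scaling, with 87 higher and 429 lower as deposited, 242 and 196 after centring, 251 and 192 after quantile normalization, and 339 and 137 with limma-voom on counts scaled by totals, and the 6 genes were called higher under each of these. With CTLA4-Ig, 0 of the 6 and 0% of all genes changed at the adjusted threshold of limma or, after adjustment, of the methods' t-test, which the methods name for other data while naming limma for these. At an unadjusted limma *P* value below 0.05, 1 of the 6 was higher (4.9% of all genes) and 2 were lower (4.63%), and the same genes were the ones without overlap, 1 higher (3.41%) and 2 lower (3.95%). Adding EPO to CTLA4-Ig lowered 5 of the 6 (28.3% of all genes lower, 22.8% higher), and the same 5 were without overlap between the groups (27.5%), with a median change of -1.58 over the 6. All genes split into 167 higher and 208 lower with EPO as deposited, 126 and 276 after centring, 155 and 223 after quantile normalization, and 189 and 151 with limma-voom. These comparisons share mice: the group given BALB/c cells alone enters the first and the next, and the CTLA4-Ig group enters the next and the last.

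**Figure D2:**
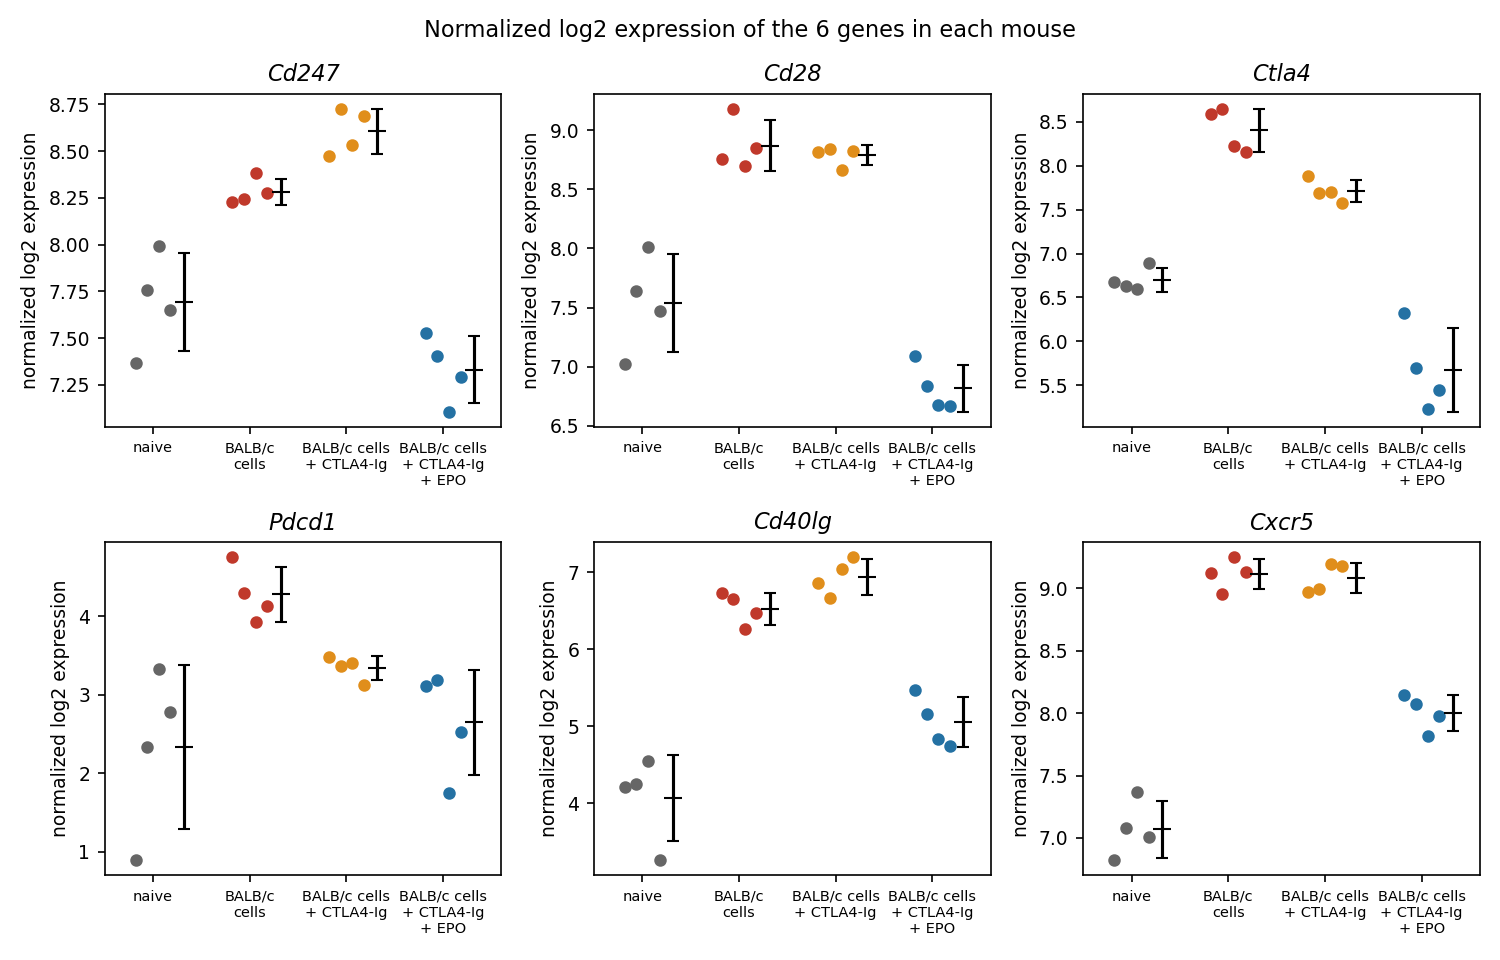
Normalized log2 expression of each gene, a point per mouse in replicate order, with the mean and SD of each group of 4 at its right. Each gene has an axis of its own, and in all 6 the mice given BALB/c cells alone lie above the naive mice, whereas with CTLA4-Ig/EPO 5 of the 6 lie below the CTLA4-Ig mice and *Pdcd1* overlaps.

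*Cd247*, the signalling chain of the T cell receptor, was 7.37, 7.76, 8.0 and 7.65 in naive mice (normalized log2 expression, replicates 1 to 4), 8.23, 8.24, 8.38 and 8.28 after BALB/c cells alone, 8.47, 8.73, 8.53 and 8.69 with CTLA4-Ig, and 7.53, 7.40, 7.11 and 7.29 with CTLA4-Ig/EPO. It was highest with CTLA4-Ig, where every mouse was above every mouse given BALB/c cells alone, and the CTLA4-Ig/EPO mice overlapped the naive mice. BALB/c cells alone raised it by 0.59 (standard error 0.13, limma adjusted *P* value 0.000879), and by 1.32 after centring. The CTLA4-Ig group was 0.32 above BALB/c cells alone (standard error 0.13, adjusted *P* value 0.523), a difference that did not pass. EPO lowered it by a log2 change of -1.27 (standard error 0.13, adjusted *P* value 1.15e-06), a 2.42-fold difference. Against naive mice, the change with CTLA4-Ig/EPO was -0.36 as deposited (adjusted *P* value 0.0201) but 0.16 after centring and 0.85 with counts scaled by totals, so its direction depends on the scaling. The call of that change was also lost without naive replicate 3 (-0.26, adjusted *P* value 0.0724) or CTLA4-Ig/EPO replicate 3 (-0.29, adjusted *P* value 0.069).

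*Cd28*, the main costimulatory receptor, was 7.02, 7.64, 8.01 and 7.47 in naive mice, 8.75, 9.18, 8.70 and 8.85 after BALB/c cells alone, 8.81, 8.84, 8.66 and 8.83 with CTLA4-Ig, and 7.09, 6.84, 6.67 and 6.67 with CTLA4-Ig/EPO. The groups with BALB/c cells alone and with CTLA4-Ig overlapped, though 2 of 4 mice given BALB/c cells alone were above all CTLA4-Ig mice, and both stood clear of the other groups. The rise after BALB/c cells alone was 1.33 (standard error 0.18, adjusted *P* value 1.02e-05 in limma) and 2.06 after centring. With CTLA4-Ig the difference from BALB/c cells alone was -0.08 (95% interval -0.46 to 0.30), and 0.0208 without replicate 2 of the mice given BALB/c cells alone. EPO then lowered *Cd28* by a log2 change of -1.97 (standard error 0.18, adjusted *P* value 3.65e-07), a 3.92-fold difference. Against naive mice, CTLA4-Ig/EPO gave -0.72 as deposited (limma adjusted *P* value 0.00218, groups overlapping), -0.20 after centring, which did not pass, and 0.50 with counts scaled by totals, so this direction too depends on the scaling.

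*Ctla4*, the inhibitory counterpart of *Cd28*, was 6.67, 6.63, 6.60 and 6.89 in naive mice, 8.58, 8.64, 8.23 and 8.15 after BALB/c cells alone, 7.88, 7.69, 7.71 and 7.57 with CTLA4-Ig, and 6.33, 5.70, 5.23 and 5.44 with CTLA4-Ig/EPO. No group overlapped another, and the order of the group means was BALB/c cells alone (8.40 ± 0.25), CTLA4-Ig (7.71 ± 0.13), naive (6.70 ± 0.14) and CTLA4-Ig/EPO (5.67 ± 0.47, SD, n = 4 each). BALB/c cells alone raised it by 1.70 (standard error 0.19, limma adjusted *P* value 2.07e-06), and by 2.44 after centring. CTLA4-Ig mice were lower than mice given BALB/c cells alone by a log2 difference of -0.69 (standard error 0.19), which passed an unadjusted limma *P* value (0.00314) but not the adjusted one (0.25). The fall with EPO was the largest of the 6 genes on the deposited scale, -2.04 (standard error 0.19, adjusted *P* value 6.73e-07), a 4.11-fold difference, though its standard error spans the change of *Cd28*. Against naive mice the change was -1.02 with CTLA4-Ig/EPO (adjusted *P* value 0.000282) and -0.50 after centring, and it turned to 0.17 with counts scaled by totals.

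*Pdcd1*, which encodes the inhibitory receptor PD-1, had values of 0.89, 2.34, 3.32 and 2.77 in naive mice, 4.75, 4.30, 3.92 and 4.14 after BALB/c cells alone, 3.48, 3.36, 3.41 and 3.12 with CTLA4-Ig, and 3.12, 3.19, 1.75 and 2.53 with CTLA4-Ig/EPO. These stand for 1, 4, 6 and 5 recovered counts in naive mice, 37, 26, 24 and 28 after BALB/c cells alone, 16, 13, 18 and 13 with CTLA4-Ig, and 12, 12, 6 and 9 with CTLA4-Ig/EPO. The mice given BALB/c cells alone were above every other mouse, and the other 3 groups overlapped one another. The rise after BALB/c cells alone was 1.95 (standard error 0.43, limma adjusted *P* value 0.000954), 2.68 after centring and 1.47 without naive replicate 1, but with counts below 10 raised to 10 it was 0.35 and did not pass (adjusted *P* value 0.100), since that floor lies higher on the log2 scale in naive mice. CTLA4-Ig gave a difference of -0.94 (95% interval -1.85 to -0.03, adjusted *P* value 0.523). EPO gave -0.70 (95% interval -1.61 to 0.22, adjusted *P* value 0.193), so at these counts a change with EPO was not detectable in the deposited values, and the interval includes a fall as large as that of *Cxcr5* or *Cd247*. Set side by side by replicate number, a possible pairing only, *Pdcd1* was lower with EPO each time. The values went from 3.48 to 3.12, 3.36 to 3.19, 3.41 to 1.75 and 3.12 to 2.53. With a replicate block the change did not pass (limma adjusted *P* value 0.251). Without CTLA4-Ig/EPO replicate 3, at 6 counts, the EPO change was -0.40. With counts raised to 10 it was -0.47 and passed (adjusted *P* value 0.0488). Against naive mice the change with CTLA4-Ig/EPO was 0.31, 0.83 after centring, and turned to -0.17 without naive replicate 1, the mouse with a count of 1. It passed as lower at -1.06 with counts raised to 10 (limma adjusted *P* value 9.42e-05). However, it passed as higher at 1.26 after quantile normalization and at 1.37 with limma-voom (limma adjusted *P* values 0.00184 and 0.0139). The direction of this change thus depends on the processing.

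*Ctla4* and *Pdcd1* were the genes without overlap downward with CTLA4-Ig (3.95% of all genes), and *Cd247* the one without overlap upward (3.41%). None of these differences passed the adjusted threshold of limma, and a link to the promoters was not tested. RefSeq promoters from 250 bases before to 50 bases after the start were available here for 3 of the 6 genes. These are shown to set the 3 side by side (assembly GRCm38.p6, 5′ to 3′ on the strand of the gene). Promoters of the other genes were not at hand, which says nothing about their annotation. They lie at chr1:60908775-60909074 on the + strand for *Ctla4*, chr1:165788431-165788730 on the + strand for *Cd247* and chr1:94052504-94052803 on the - strand for *Pdcd1*. Capitals mark GGAAA, the core letters bound by NFAT, a factor activated by T cell receptor signalling, and TATAAA, the TATA box, searched on both strands, so that TTTCC and TTTATA are their reverse forms.
Ctla4: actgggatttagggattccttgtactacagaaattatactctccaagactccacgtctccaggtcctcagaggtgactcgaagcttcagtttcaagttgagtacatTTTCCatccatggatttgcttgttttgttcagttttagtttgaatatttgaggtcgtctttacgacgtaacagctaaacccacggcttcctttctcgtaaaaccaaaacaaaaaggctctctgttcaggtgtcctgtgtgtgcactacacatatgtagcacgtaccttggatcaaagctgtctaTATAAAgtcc
Pdcd1: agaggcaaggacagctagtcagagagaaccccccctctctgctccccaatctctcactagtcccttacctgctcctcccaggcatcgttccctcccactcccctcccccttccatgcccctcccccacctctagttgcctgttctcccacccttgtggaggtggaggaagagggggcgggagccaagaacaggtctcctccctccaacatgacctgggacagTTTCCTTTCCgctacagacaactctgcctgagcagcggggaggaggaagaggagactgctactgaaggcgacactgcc
Cd247: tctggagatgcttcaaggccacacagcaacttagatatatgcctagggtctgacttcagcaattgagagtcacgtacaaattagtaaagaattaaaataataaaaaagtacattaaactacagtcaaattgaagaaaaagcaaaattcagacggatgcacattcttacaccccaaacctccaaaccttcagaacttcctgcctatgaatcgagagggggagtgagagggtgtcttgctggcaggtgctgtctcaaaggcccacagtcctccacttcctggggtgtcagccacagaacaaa
*Ctla4* holds 1 NFAT core at -144 from the start, on the reverse strand, and 1 TATA box at 41. *Pdcd1* holds 2 NFAT cores on the reverse strand, at -28 and -23, next to each other, and no TATA box, and *Cd247* holds 0 matches to either motif. No match overlapped another. Among all 32851 promoters of this length, 61.3% hold GGAAA and 13.6% hold TATAAA on either strand, so the matches are a description of the letters and mark no site. In the RefSeq gene table of the same assembly, *Cd28*, *Ctla4* and *Icos* are consecutive protein-coding genes on chromosome 1.

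*Cd40lg* encodes the ligand that helper T cells show after activation. Its values were 4.21, 4.25, 4.55 and 3.26 in naive mice (10, 15, 14 and 7 counts), 6.72, 6.65, 6.26 and 6.47 after BALB/c cells alone, 6.85, 6.66, 7.04 and 7.19 with CTLA4-Ig, and 5.46, 5.16, 4.84 and 4.75 with CTLA4-Ig/EPO. The CTLA4-Ig/EPO mice lay between the naive mice and the other groups, without overlap on either side, and mice with and without CTLA4-Ig overlapped. The rise after BALB/c cells alone was 2.46 (standard error 0.24, limma adjusted *P* value 3.98e-07), 3.19 after centring and 2.33 with counts below 10 raised to 10. With CTLA4-Ig the difference was 0.41 (95% interval -0.10 to 0.93, adjusted *P* value 0.691). EPO lowered it by a log2 change of -1.88 (standard error 0.24, adjusted *P* value 1.17e-05), a 3.69-fold difference, and left it above naive mice by 0.99 (adjusted *P* value 0.00208), or 1.51 after centring.

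*Cxcr5*, the homing receptor for follicles, was 6.82, 7.08, 7.37 and 7.01 in naive mice, 9.13, 8.96, 9.25 and 9.13 after BALB/c cells alone, 8.97, 8.99, 9.19 and 9.18 with CTLA4-Ig, and 8.15, 8.07, 7.82 and 7.97 with CTLA4-Ig/EPO. As for *Cd40lg*, the CTLA4-Ig/EPO mice formed a middle level without overlap with the naive mice below or the other groups above. BALB/c cells alone raised it by 2.05 (standard error 0.12, limma adjusted *P* value 1.7e-09), a 4.13-fold difference, and by 2.78 after centring. With CTLA4-Ig the difference was -0.03 (95% interval -0.29 to 0.23), and 0.0145 without replicate 3 of the mice given BALB/c cells alone, and it was also above 0 without CTLA4-Ig replicate 1. EPO lowered it by a log2 change of -1.08 (standard error 0.12, adjusted *P* value 2.81e-06), a 2.12-fold difference, and left it 0.93 above naive mice (adjusted *P* value 7.16e-06), or 1.45 after centring.

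Set against naive mice, mice with CTLA4-Ig/EPO thus had 2 of the 6 genes called higher, *Cd40lg* and *Cxcr5* (9.13% of all genes), both without overlap (8.58%), and 3 called lower, *Cd28*, *Ctla4* and *Cd247* (61.7%), of which *Ctla4* was without overlap (54.2%). All genes split into 67 higher and 453 lower as deposited, 168 and 249 after centring, 223 and 191 after quantile normalization, and 346 and 95 with limma-voom. The higher calls held after centring, after quantile normalization and with counts scaled by totals. Of the lower ones, only *Ctla4* was still called after centring, and with counts scaled by totals all 3 changes were positive and that of *Cd247* passed as higher (0.85, limma adjusted *P* value 0.000489). With *Pdcd1*, 3 of the 6 were called higher after quantile normalization, and 4 with counts scaled by totals. *Cd247* kept its call in limma without adjustment and lost it in the methods' t-test.

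**Figure D3:**
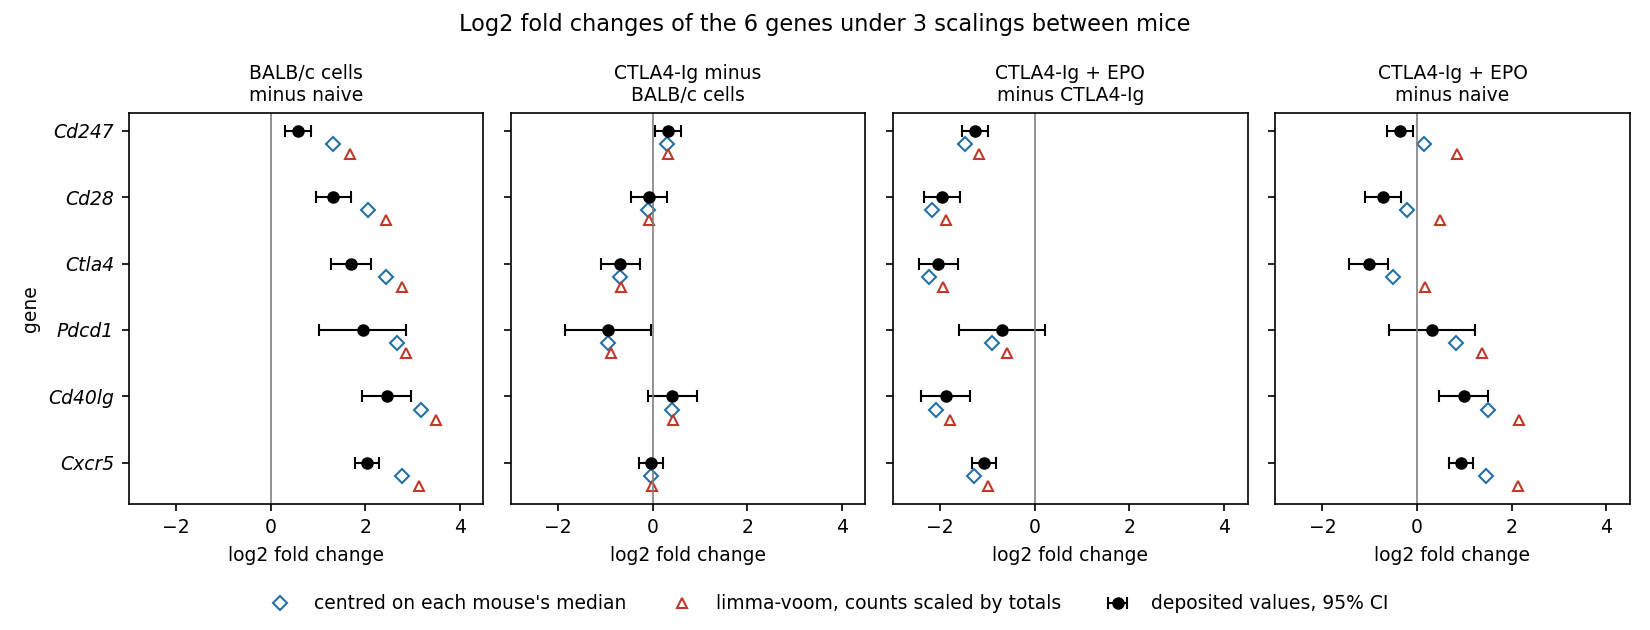
Log2 fold changes of the 6 genes in 4 comparisons, with filled points and 95% intervals for the deposited values, diamonds for values centred on each mouse's median and triangles for limma-voom on counts scaled by totals. Between groups given BALB/c cells each gene keeps its direction, though sizes move, as for *Cd28* with EPO at -1.97, -2.17 and -1.87. Against naive mice the CTLA4-Ig/EPO change of *Cd247* moves from -0.36 to 0.16 and 0.85. Those of *Cd28* and *Ctla4* turn to 0.50 and 0.17 in the last scaling.

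Differences between 2 genes within a mouse do not depend on the scaling factor, and they show where the 6 genes changed by unequal amounts. *Cd28* minus *Ctla4* was 0.17, 0.54, 0.47 and 0.70 after BALB/c cells alone and 0.93, 1.15, 0.96 and 1.25 with CTLA4-Ig, so that every mouse with CTLA4-Ig had more *Cd28* relative to *Ctla4*, by 0.60 on average. With EPO it was 0.76, 1.14, 1.44 and 1.23, which overlapped the CTLA4-Ig mice (change 0.07). The naive mice, at 0.35, 1.02, 1.42 and 0.58, overlapped every other group. *Cd28* minus *Cd247* was 0.34, 0.12, 0.13 and 0.14 with CTLA4-Ig and -0.44, -0.57, -0.43 and -0.62 with EPO, a change of -0.70 without overlap. *Cd247* minus *Cxcr5* was 0.54, 0.68, 0.63 and 0.65 in naive mice and -0.90, -0.71, -0.87 and -0.85 after BALB/c cells alone, a change of -1.46, the gap between the smallest and a large rise. Each of these changes without overlap had an exact two-sided permutation *P* value of 0.0286, the smallest that 4 mice against 4 can give. This test takes the mice as unpaired, also for EPO against CTLA4-Ig, where the replicate numbers were taken as a possible pairing. Of the 15 pairs of genes, 7 separated BALB/c cells alone from naive mice and 8 separated EPO from CTLA4-Ig, and 0 passed after adjustment over these 30 tests (smallest adjusted *P* value 0.0571). In comparisons added after the data were seen, 9 of 15 separated CTLA4-Ig from BALB/c cells alone and 7 of 15 separated CTLA4-Ig/EPO from naive mice, again with 0 past the adjusted threshold (smallest 0.0536, exact permutation test).

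**Figure D4:**
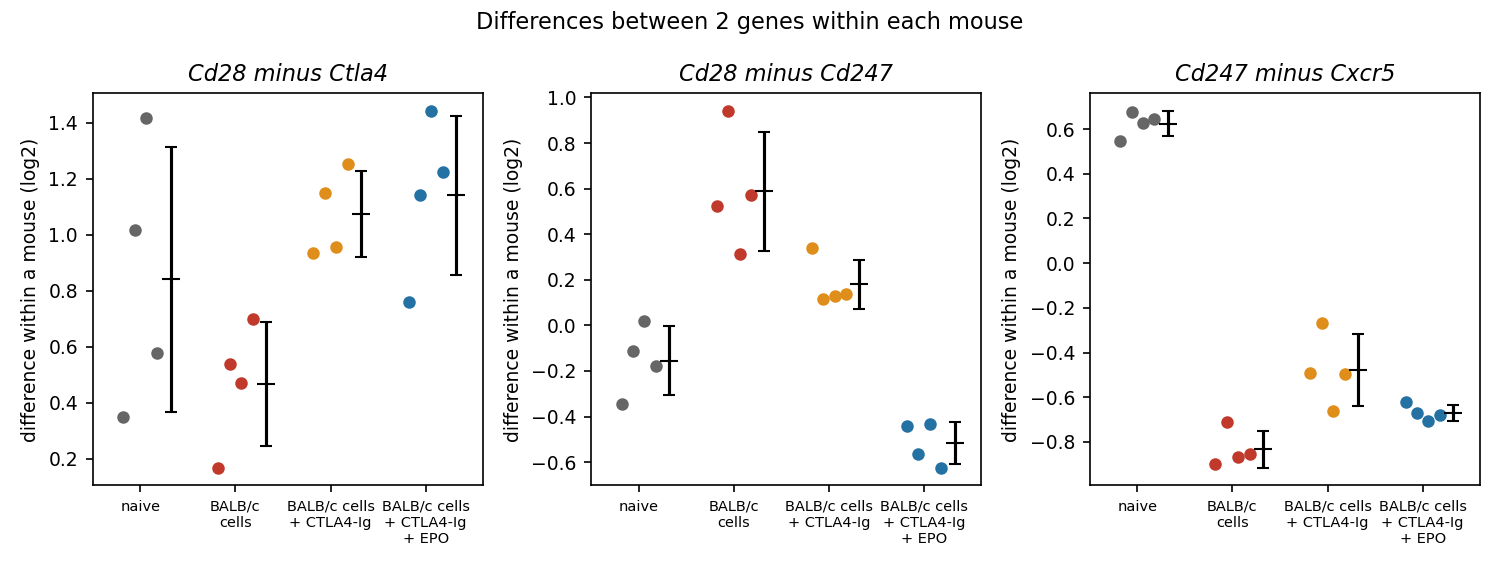
Log2 difference between 2 genes within each mouse, a point per mouse in replicate order, with the mean and SD of each group of 4. *Cd28* minus *Ctla4* is 0.17 to 0.70 after BALB/c cells alone and 0.93 to 1.25 with CTLA4-Ig, and *Cd247* minus *Cxcr5* is 0.54 to 0.68 in naive mice and below 0 in every other mouse.

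Of the list of ligands and partners, which also holds the ligand of ICOS, a receptor outside the 6 genes, 7 of 7 have values. After BALB/c cells alone, 2 were higher, *Icosl* (ligand of ICOS) by 0.81 and *Cd274* (PD-L1) by 0.61, and *Cd80* was called lower as deposited (-0.63) but was at 0.10 after centring, which did not pass. After centring 6 of 7 were higher and 0 lower. With CTLA4-Ig, 0 of 7 changed in limma, and 0 at an unadjusted *P* value below 0.05. With EPO, 4 were lower, *Cd274* (-1.21, limma adjusted *P* value 1.45e-06), *Cd80* (-0.59), *Icosl* (-0.47) and *Cd40* (-0.41), and *Cxcl13*, the ligand of CXCR5, was higher by 1.39 (adjusted *P* value 0.022) while *Cxcr5* was lower, although its groups overlapped and its call was lost after quantile normalization (0 of 7 higher). *Cd86*, the other ligand of CD28 and CTLA-4, differed by -0.07 and did not pass. Against naive mice, CTLA4-Ig/EPO gave 1 higher and 3 lower as deposited, where 61.7% of all genes were lower, and 4 higher and 1 lower after centring.

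Of 20 genes of the T cell receptor and its signalling, 5 have values, and EPO lowered 5 of 5, the most *Lat* (-1.28, adjusted *P* value 4.81e-06 in limma), an adaptor directly downstream of the receptor, and then *Nfatc1* (-0.91). After BALB/c cells alone 2 of 5 were higher, *Lat* by 1.35 and *Nfatc2* by 0.56, and *Ptprc*, which encodes CD45 of all leukocytes, was at -0.65 as deposited and at 0.0852 after centring, where 4 of 5 were higher and 0 lower. With CTLA4-Ig 0 of 5 passed either threshold, and CTLA4-Ig/EPO against naive mice gave 0 higher and 2 lower as deposited and 3 higher and 2 lower after centring. Of 12 other costimulatory and coinhibitory receptors, 8 have values, and 5 of 8 were higher after BALB/c cells alone (7 after centring), among them *Btla* (1.51) and *Icos* (1.41). With EPO 7 of 8 were lower, the most *Tigit* (-1.50, adjusted *P* value 7.28e-06), and *Lag3* was higher by 0.89 (adjusted *P* value 3.45e-05). In limma 0 of 8 changed with CTLA4-Ig, and 2 at the unadjusted threshold, *Tnfrsf4* (OX40, -0.72) and *Icos* (-0.36), and against naive mice CTLA4-Ig/EPO gave 2 higher and 4 lower as deposited and 4 higher and 1 lower after centring. Of 16 genes of T cell fate, 7 have values. Among these, 4 were higher and 2 lower after BALB/c cells alone (5 and 1 after centring), with *S1pr1* (1.77) and *Ccr7* (1.75) the highest, and 7 of 7 were lower with EPO, the most *Egr3* (-1.96) and *S1pr1* (-1.93). Here 0 of 7 changed with CTLA4-Ig in limma and 1 at the unadjusted threshold, and against naive mice CTLA4-Ig/EPO gave 0 higher and 4 lower as deposited and 1 higher and 3 lower after centring. *Bcl6*, the transcription factor of follicular helper T cells and germinal centre B cells, was at -0.65 after BALB/c cells alone, which is the median change of all genes, and at 0.0825 after centring, so its direction depends on the scaling, and it was lower with EPO (-0.65). The median log2 change with EPO was -0.42 for the ligands and partners, -0.75 for receptor signalling, -0.94 for the other receptors and -1.19 for T cell fate, against -0.07 for all genes. With limma-voom, EPO lowered 3 of 7, 4 of 5, 7 of 8 and 6 of 7 of them, in the same order. Against naive mice, limma-voom gave 7 higher and 0 lower, 5 and 0, 8 and 0, and 6 and 1 after BALB/c cells alone, and 6 and 0, 3 and 0, 5 and 0, and 3 and 1 with CTLA4-Ig/EPO, so the directions of these lists against naive mice depend on the scaling.

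The 6 genes took 0.0344% to 0.0862% of all counts in naive mice, 0.327% to 0.358% after BALB/c cells alone, 0.314% to 0.353% with CTLA4-Ig and 0.115% to 0.155% with CTLA4-Ig/EPO. In bulk RNA, a smaller number of lymphocytes among the selected cells and less of these mRNAs per cell cannot be told apart, and which cells held the mRNAs was not measured. Of 9 T cell markers (the *Cd3* chains, *Cd4*, *Cd8a*, *Cd8b1*, *Cd5*, *Lck* and *Trac*) 0 have values here, and of 4 plasma cell markers 0, so a T cell level could not be set beside these genes. Of 10 B cell markers 2 have values, *Ms4a1* (CD20, at least 96.7% of their summed counts in every mouse) and *Fcer2a*, with 9 to 19 counts in naive mice. Together they took 0.0580% to 0.108% of counts in naive mice, 0.457% to 0.546% after BALB/c cells alone, 0.444% to 0.508% with CTLA4-Ig and 0.260% to 0.377% with CTLA4-Ig/EPO. Both were higher after BALB/c cells alone (*Ms4a1* by 1.48, *Fcer2a* by 1.41) and lower with EPO (-0.76 and -0.97, limma adjusted *P* values 0.000158 and 5.12e-05), and CTLA4-Ig changed 0 of 2, or 1 at the unadjusted threshold. Against naive mice, CTLA4-Ig/EPO left both higher. The calls against naive mice were the same after centring and with limma-voom. The part of B cells in the results for the 6 genes, *Cxcr5* included, was not tested.

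Of 9 NK cell markers 3 have values, with *Gzma* the most abundant in every mouse, and their summed share was 0.522% to 1.10% in naive mice, 0.809% to 1.45% after BALB/c cells alone, 1.54% to 2.24% with CTLA4-Ig and 1.05% to 1.39% with CTLA4-Ig/EPO. BALB/c cells alone gave 0 higher and 2 lower as deposited but 1 higher and 0 lower after centring and 3 higher with limma-voom. None of the 3 changed with CTLA4-Ig at the adjusted threshold of limma, and 3 were higher at the unadjusted one. EPO lowered 3 of 3 as deposited and after centring, but 1 of 3 with limma-voom, and against naive mice CTLA4-Ig/EPO had 2 lower as deposited, 0 after centring and 2 higher with limma-voom. Of 8 dendritic cell markers 6 have values, with 0.0699% to 0.229% of counts in naive mice, 0.397% to 0.476% after BALB/c cells alone, 0.418% to 0.468% with CTLA4-Ig and 0.271% to 0.343% with CTLA4-Ig/EPO, and with *Irf8* the most abundant in 13 of 16 mice but at a count of 1 in naive replicate 1. After BALB/c cells alone 3 of 6 were higher and 1 lower (4 and 1 after centring, 5 and 0 with limma-voom), CTLA4-Ig changed 0 (1 at the unadjusted threshold), EPO raised 1 and lowered 2 (0 and 2 after centring), and CTLA4-Ig/EPO against naive mice had 1 higher and 2 lower (3 and 1 after centring, 4 and 0 with limma-voom). The part of NK cells and dendritic cells in the results was not tested.

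The labelled cell type was set beside CD11b+ myeloid markers, of which 9 of 11 have values. No recovered count can be 0 by construction, and their lowest was 44, for *Ly6g* after BALB/c cells alone. *Itgam*, the gene of CD11b itself, was 11.42 ± 0.15 in naive mice, 8.85 ± 0.28 after BALB/c cells alone, 9.22 ± 0.12 when CTLA4-Ig was added and 9.56 ± 0.29 with CTLA4-Ig/EPO (SD, n = 4 each, normalized log2 expression). The 9 markers took 26.8% to 47.3% of counts in naive mice, 2.88% to 6.90% after BALB/c cells alone, 2.98% to 4.96% with CTLA4-Ig and 8.61% to 15.7% with CTLA4-Ig/EPO, and *S100a9*, a neutrophil and monocyte gene, was the most abundant in 15 of 16 mice and *S100a8* in 1. In naive mice *S100a9* alone made up 51.3% to 53.3% of the summed marker counts, and *S100a8* had 64158 to 172705 counts. Both genes enter the totals, so shares of other genes and changes with counts scaled by totals depend on them. All 9 were lower after BALB/c cells alone (median log2 change -2.57, 7 of 9 after centring or with limma-voom), CTLA4-Ig changed 0 (2 at the unadjusted threshold), EPO raised 5 of 9 (median 1.16; 6 after quantile normalization and 8 with limma-voom), and CTLA4-Ig/EPO against naive mice had 1 higher and 7 lower (2 and 6 after centring, 3 and 6 with limma-voom). The markers were thus detected in every group, at levels that were lower after BALB/c cells alone, where the 6 genes were higher. *Itgam* had 1439 to 2157 counts in naive mice and *Ms4a1* 473 to 745. After BALB/c cells alone they had 476 to 902 and 3325 to 4235, and with CTLA4-Ig 787 to 984 and 3206 to 4501. With CTLA4-Ig/EPO they had 805 to 1384 and 1952 to 2414. Purity was not measured by these values. With EPO, as deposited, the 5 myeloid markers that passed were higher, *Itgam* (0.33, limma adjusted *P* value 0.0881) and 3 others did not pass, among them *Cd14* at -0.07. Their part in the results for the 6 genes was not tested.

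**Figure D5:**
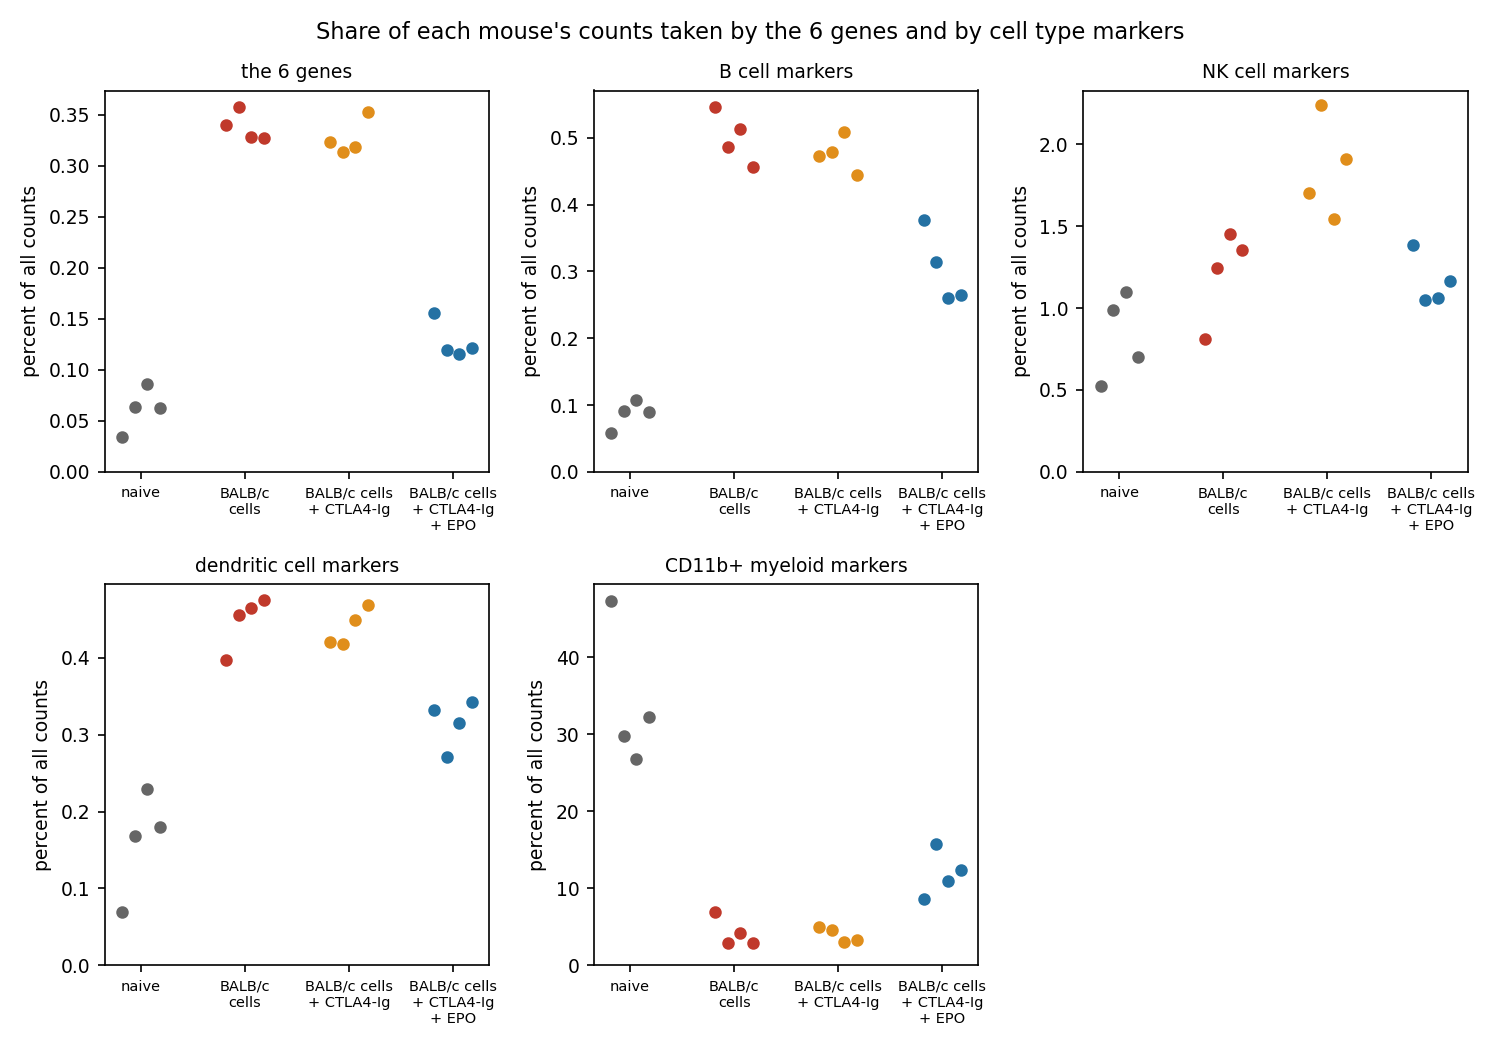
Percent of each mouse's recovered counts taken by the 6 genes together and by the markers of 4 cell types, a point per mouse in replicate order, with axes from 0. The 6 genes and the B cell markers are lowest in naive mice and lower with CTLA4-Ig/EPO than with CTLA4-Ig, and the CD11b+ myeloid markers fall from 26.8% to 47.3% in naive mice to 2.88% to 6.90% after BALB/c cells alone. *S100a9* alone makes up 51.3% to 53.3% of the myeloid marker counts in naive mice.

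The genes whose log2 values over the 16 mice were most like those of each gene, by Pearson's *r*, are given as a description, since all mice share the group structure and a scaling factor acts on every gene of a mouse. For *Cd28* they were *H2-Ab1* (0.982), *Cd83* (0.979) and *Smad7* (0.976), and for *Ctla4* they were *H2-Ab1* (0.953), *Cd274* (0.951) and *Flt3* (0.941). For *Cd247* they were *Smad7* (0.967), *Gata3* (0.962) and *Irf4* (0.950). *Cd40lg* was closest to *H2-DMb2* (0.958), *Cxcr5* (0.958) and *H2-Ob* (0.957), and *Cxcr5* to *Ms4a1* (0.978), *H2-Ob* (0.963) and *Fcer2a* (0.962). The last list holds both measured B cell markers, but neither was among the 3 closest without the naive mice, and only *Ms4a1* was after centring. Their *r* with *Cxcr5* stayed high, 0.939 (*Ms4a1*) and 0.902 (*Fcer2a*) without the naive mice and 0.990 and 0.981 after centring. The closest to *Pdcd1* were *Icosl* (0.825), *Cxcr3* (0.816) and *Icos* (0.816), lower values than in the other lists, for a reason that was not tested. Without the naive mice, 12 mice remain, and of the 3 genes 1 was kept for *Cd28*, 2 for *Ctla4*, 0 for *Cd247*, 0 for *Cd40lg*, 1 for *Pdcd1* and 1 for *Cxcr5*. After centring, 2 were kept for *Cd28*, 1 for *Ctla4*, 2 for *Cd247*, 2 for *Cd40lg*, 0 for *Pdcd1* and 2 for *Cxcr5*.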

How the data were processed

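RNA of splenic CD11b+ cells of 16 mice was counted on the nCounter panel. The authors normalized the counts in limma and deposited log2 values for 734 genes, a column per mouse. What the factor of each mouse was computed from is not given in the sources used here. Samples were grouped by name and treatment field. With limma 3.58.1 in R 4.3.3, the deposited log2 values of all genes and mice were modelled by their 4 group means without a filter, with 4 contrasts, two-sided tests and Benjamini-Hochberg adjustment over all 734 genes at a threshold of 0.05. A fold change is the difference between 2 group means on the log2 scale, and its standard error and 95% interval come from the model. Counts were recovered as powers of 2 relative to the lowest value of each mouse, on the reading that this value is a count of 1 (0.843% of values), which may be a true 1, a raised 0 or a count with 1 added. Poisson intervals cover counting error only. No pair of mice in a group was within sampling noise (chi-square per degree of freedom 5.10 to 127). The replicate numbers of the labels are taken as separate mice, and *P* values measure the spread between them.

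The 6 genes and the lists (ligands and partners, T cell receptor and its signalling, other costimulatory and coinhibitory receptors, T cell fate, and markers of T, B, NK, dendritic, CD11b+ myeloid and plasma cells) were chosen with earlier results of these data known. The genes named are the 6, up to 6 per list with the largest change or against most of their list, and the 3 genes most like each of the 6. Differences between 2 of the 6 genes within a mouse were compared with an exact two-sided permutation test, adjusted over 15 pairs and 2 comparisons, and the other 2 comparisons, chosen after the data were seen, were adjusted on their own. The 3 genes most like each of the 6 were ranked by Pearson's *r*. The script was tested on simulated data. Deviations from the group mean, correlated over genes between same-numbered mice with CTLA4-Ig and with CTLA4-Ig/EPO, gave 0.143 to 0.183 in the 4 pairs. For CTLA4-Ig against BALB/c cells alone, which were not taken as paired, they were 0.0156 to 0.293. Mice with different numbers were not compared, so these correlations do not establish a pairing. The main fit and the permutation tests took the mice as unpaired. From the values alone, the numbers were taken as a possible pairing of CTLA4-Ig and CTLA4-Ig/EPO mice, and a replicate block was an alternative. The others were unadjusted *P* values, centring, quantile normalization, limma-voom on recovered counts, a floor of 10 counts, a filter on the lowest 25% of genes, a fit of the 2 groups compared, the methods' t-test and leaving out each mouse. The t-test is the one the methods name for comparisons of 2 groups in other data, and for the nCounter genes they name limma. The counts of list genes after centring were added after the data were seen. Of the symbols, 724 were current in the RefSeq gene table of GRCm38.p6, 9 were synonyms there and 1 had no match. Tables were made in Python 3.11.15 with pandas 2.3.3, numpy 2.4.6 and scipy 1.17.1, and figures in matplotlib 3.10.9.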

Additional observations from a re-analysis of the deposited data

Results flagged for a closer look

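*Cd28* with CTLA4-Ig had a mouse apart from the others of its group, replicate 3 at 8.66 on the log2 scale against 8.81 to 8.84 in the other 3, a gap of 0.842 of the group's range. It was 1 of 24 groups of 4 mice looked at, and chance sets apart a mouse in about 1 in 20 groups.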

How the results depend on the processing

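The 6 higher calls after BALB/c cells alone and the 5 lower calls with EPO were kept under unadjusted *P* values, centring, quantile normalization, limma-voom, the fit of 2 groups, the methods' t-test and each mouse left out, except *Pdcd1* under the floor of 10 counts (0.35 after BALB/c cells alone, no longer called, and -0.47 with EPO, newly called) and under the 25% filter, which removed it. With the replicate block, members called were 6, 0, 5 and 5 in the 4 comparisons, as without it, and 400 of all genes were called with EPO, against 375. The block changed no call of the 6 genes. CTLA4-Ig changed 0 of the 6 genes and 0 of all genes at the adjusted threshold, but 3 and 70 at unadjusted limma *P* values and 4 and 76 by the methods' t-test, unadjusted. With each mouse left out, the CTLA4-Ig change was -0.14 to 0.0208 for *Cd28* and -0.0837 to 0.0145 for *Cxcr5*. Most exceptions concern CTLA4-Ig/EPO against naive mice, where centring called 3 of the 6 in place of 5. There limma-voom turned *Cd28* to 0.50, *Ctla4* to 0.17 and *Cd247* to 0.85, and *Cd247* was 0.16 after centring and 0.22 after quantile normalization, and lost its call in the fit of 2 groups (adjusted *P* value 0.0735) and in the methods' t-test (adjusted *P* value 0.0889). *Pdcd1* was -0.17 to 0.64 with a mouse left out, called lower at -1.06 with the floor, and called higher at 1.26 after quantile normalization and 1.37 with limma-voom. The floor of 10 counts put 10, 9, 10 and 10 of 15 pairs of genes past the threshold, in place of 0. All pairs without overlap share the smallest exact *P* value, so passing depends on how many of the 30 differences adjusted together separate the groups, and the differences between CTLA4-Ig and BALB/c cells alone were the same with the floor. It turned the change after BALB/c cells alone in *Cd28*, *Ctla4* and *Cd247* minus *Pdcd1* to 0.98, 1.35 and 0.24, and, for CTLA4-Ig/EPO against naive mice, in the same pairs to 0.34, 0.0354 and 0.70 and in *Cd40lg* minus *Cxcr5* to -0.0749. The floor stands higher on the log2 scale in naive mice by construction, because their factors are larger. The cause of the other changes was not tested. Counts were below 20 in some or all mice of the naive, CTLA4-Ig and CTLA4-Ig/EPO groups for *Pdcd1* and in naive mice for *Cd40lg*, and depth limits these values.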
